A study of Mus musculus with 8 samples.

Results

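The transcriptome described here is that of isolated white adipocytes from wild-type (WT) mice fed normal chow, called standard diet (SD) in the study, and it rests on 2 of the 8 RNA-seq libraries of the series, chosen by their genotype and diet labels alone. The series set adipocyte-specific Yap/Taz-deficient mice (Ad-Yap/Taz-KO, made with Adipoq-Cre, a Cre driven by the adiponectin gene) against WT littermates on SD and on a high-fat diet, and asked how the transcriptional co-activators YAP and TAZ affect adipocytes. The other 6 libraries are not analysed here. Both libraries were made from adipocytes of the epididymal fat pad of WT mice after 4 weeks of SD. The labels call each library a repeat from a WT mouse, the study's methods state that male mice were used, and neither source reports pooling. The knockout carried floxed Yap and Taz alleles, and whether the WT littermates of this Cre line carried them without Cre is not given in the sources used here. The description of the series places the start of the diet at week 5 of age, and the methods give a later age. With 1 group of 2 libraries nothing was tested, and every statement below is a description with both values.

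White adipocytes store triglyceride in a single large lipid droplet, take up fatty acids that lipoprotein lipase frees from circulating lipoproteins, make further fatty acids from glucose, and release stored fat by lipolysis. They are also secretory cells that release hormones such as leptin and adiponectin and the complement protease adipsin. Fat tissue holds endothelial cells, pericytes, fibroblast-like progenitors and immune cells beside the adipocytes, and isolation by digestion and flotation enriches the adipocytes without giving a pure preparation.

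The deposited value of a gene is its read count divided by 1 factor per library and rounded, called its normalized value below. The normalized total was 15507967 in replicate 1 and 15877768 in replicate 2, and the estimated depth was 15355373 and 13989593 reads on genes. Of 30387 genes listed, 23995 and 21992 were above 0, and 17345 reached the detection limit of 5 in both libraries. Of the 17815 protein-coding genes of the nuclear genome, 13917 reached it, the share to set beside the counts of detected list members below. A count of 0 allows an expected count of up to 3 reads, a normalized value of 3.03 or 3.40, and this limit covers counting error only. Among the 4887 genes that averaged 500 normalized or more, 2863 (58.6%) differed between the libraries by more than 2 standard deviations of counting error. To compare genes with each other, normalized values were divided by the length of the merged exons of the gene, and this quantity per kilobase is called the level. The median level of the 13905 detected protein-coding genes with a known length was 59.8, and their 90th percentile was 362, so that by construction 10% of them lie above it.

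A small number of genes held much of the total in both libraries. The gene with the most reads after depletion of ribosomal RNA was mt-Rnr2, the large ribosomal RNA of the mitochondrion. It held 7.79% and 7.99% of the normalized total. The first 10 genes together held 19.8% and 19.9%, the first 100 held 34.3% and 34.9%, and the first 1000 held 62.2% and 62.8%. Reaching 50% of the total took 430 genes in replicate 1 and 404 in replicate 2, and reaching 90% took 4948 and 4884. For the mean of both libraries 419 genes held 50%, against 114 with values per kilobase and 195 without genes that share exon bases with another gene. In terms of abundance, 14 genes with a mean above 50000 held 21.6% of the total, 379 genes between 5000 and 50000 held 27.6%, and 4492 genes between 500 and 5000 held 40.7%. At the other end, 6901 genes with a mean of up to 5 held 0.0895%, and 4778 genes were listed at 0 in both libraries.

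**Figure D1:**
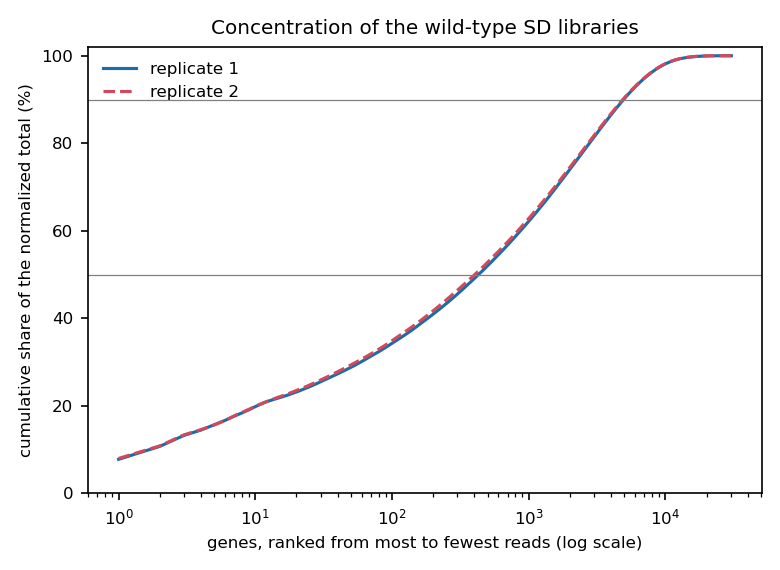
Cumulative share of the normalized total (%, vertical axis) against the number of genes taken in order from most to fewest reads (horizontal axis, log scale), as 1 line per library with grey lines at 50% and 90%. The lines of replicate 1 (solid) and replicate 2 (dashed) lie close together, start at 7.79% and 7.99% and pass 50% at 430 and 404 genes.

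The 10 genes with the most reads were a mixture of ribosomal RNA, nuclear noncoding RNA and adipocyte messages. After mt-Rnr2 came Scd1, the stearoyl-CoA desaturase that makes monounsaturated fatty acids, with normalized values of 457683 and 455110 (2.95% and 2.87% of the total). Next stood Gm26917, annotated as a lincRNA on chr17:39843013-39846341 of GRCm38 beside the ribosomal RNA gene model Rn18s-rs5, with 387578 and 398475. The nuclear RNAs Malat1 and Neat1, which mark nuclear speckles and paraspeckles, had 190396 and 189574, and 186796 and 167516. They were followed by Gsn, the actin-severing protein gelsolin, with 151361 and 167128. Car3, carbonic anhydrase 3, had 155641 and 161475. The scaffold protein gene Ahnak (109964 and 130024), Cfd, which encodes adipsin (112117 and 115512), and mt-Rnr1, the small mitochondrial ribosomal RNA (115373 and 103949), completed the 10. These values are reads summed over each gene, so long genes such as Ahnak, with 19938 bases of merged exons, collect more of them.

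Per kilobase, the highest protein-coding gene of the nuclear genome was Cfd, on chr10:79890853-79892656 (GRCm38, plus strand). Its level was 121600 in replicate 1 and 125280 in replicate 2, a mean of 123440 ± 2604 (SD, n = 2). Scd1 was second, with levels of 93557 and 93031. Car3 (54325 and 56361) and Gsn (47945 and 52939) came next, and the ranges of these 4 genes did not overlap. Below them was Hp, which encodes the haemoglobin-binding plasma protein haptoglobin, at levels of 20680 and 37550. This was 1.82 times as high in replicate 2 as in replicate 1, and its range took in both values of the next gene, Adipoq, which encodes adiponectin (25440 and 24180).

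The genes from rank 7 to rank 25 lay closer together. They were the interferon-inducible Ifi27l2a, the synuclein Sncg, the lipid droplet protein gene Cidec, the transcription factor genes Fos, Junb and Jun, the class I light chain gene B2m, the cytochrome Cyp2e1, the fatty acid binding protein gene Fabp4, the matrix protein gene Sparc, Actb, the fatty acid transporter gene Cd36, Apoe, the caveolar gene Ptrf, the secreted protein gene Ccdc80, the droplet protein gene Plin4, the chaperone gene Hspa5, Lpl and the NF-κB inhibitor gene Nfkbia. Their mean levels ran from 17729 for Ifi27l2a to 8632 for Nfkbia. Of the 24 neighbouring pairs among the first 25, only 6 stood in the order of their means in both libraries. The first 25 genes of each library taken alone had 21 in common. The members that spread most were Sncg (levels of 12015 and 19562), Plin4 (8036 and 11647) and Cyp2e1 (13943 and 9473), and the first pair was higher in replicate 2 whereas Cyp2e1 was higher in replicate 1.

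**Figure D2:**
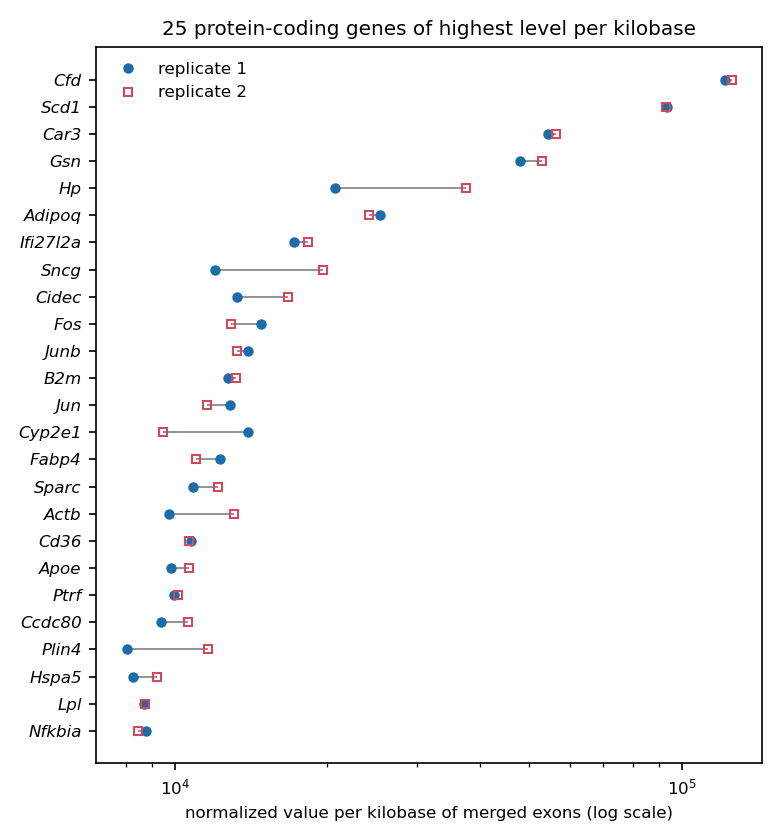
Level of the 25 highest protein-coding genes of the nuclear genome (normalized value per kilobase of merged exons, horizontal axis, log scale), with a filled circle for replicate 1, an open square for replicate 2 and a grey line joining them. Cfd, Scd1, Car3 and Gsn stand apart from the others in both libraries, and the longest line is that of Hp (20680 and 37550).

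The length used decides part of this order. Fabp4 has 4489 bases of merged exons in the annotation but a principal transcript of 896 bases, and it moved from rank 15 to rank 6 when the principal transcript was used, with levels of 61571 and 55223. Lpl, with 10478 bases of merged exons and a principal transcript of 4115, moved from rank 24 to rank 9. Ahnak moved from rank 40 to rank 1 on this measure, since the transcript taken as principal has 830 bases and its longest has 18100. Cfd, whose transcript and merged exons have the same 922 bases, was second on that measure, and Scd1, Car3 and Gsn followed it.

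Genes of lipid metabolism and of secreted proteins were frequent among the first 25. By Gene Ontology, 7 of them (28%) are annotated to lipid metabolic process and 10 (40%) to extracellular space, against 5.8% and 4.94% of the 13905 detected protein-coding genes. Among the first 500 both shares were 15.8%. The first 25 also had shorter merged exons, with a median of 2679 bases, than detected protein-coding genes as a whole, with a median of 4455 bases, and a median GC content of 52.5% against 50%. They had a median of 6 exons against 9. The length enters the level itself, so the difference in length is partly set by the measure.

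A TATAA motif upstream of the start was looked for because many strongly expressed and inducible genes are known to carry a TATA box. The letters TATAA on the gene's strand, starting 40 to 20 bases before the RefSeq start, stood in 5 of the 21 RefSeq promoters (23.8%) that matched 16 of the first 25 genes. They stood in 8.30% of the 494 promoters matched to the first 500 genes, in 2.31% of the 13528 matched to detected protein-coding genes and in 3.52% of all 32851 promoters of full length. The 5 genes were Fos, B2m, Plin4, Hspa5 and Cyp2e1. Of these, 3 are shown with the motif in capitals, from RefSeq on GRCm38.p6, read on the gene's strand and ending before the gene model. Leptin's promoter is added because it also holds the motif and encodes a hormone of the adipocyte. The positions are chr12:85473830-85473889 (plus) for Fos, chr2:122147627-122147685 (plus) for B2m, chr17:56109804-56109842 (minus) for Plin4 and chr6:29060161-29060219 (plus) for Lep. The motif starts 33, 30, 32 and 31 bases before the start, in that order. A match is a description of these letters and says nothing on which factor binds there.
Fos: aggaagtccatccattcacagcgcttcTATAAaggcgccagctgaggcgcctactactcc
B2m: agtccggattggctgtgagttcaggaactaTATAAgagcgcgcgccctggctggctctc
Plin4: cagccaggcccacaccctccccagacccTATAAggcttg
Lep: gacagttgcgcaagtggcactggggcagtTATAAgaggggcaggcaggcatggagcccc

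By gene class, protein-coding genes of the nuclear genome held 83.8% ± 0.127 (SD, n = 2) of the total. Noncoding here means neither protein-coding nor pseudogene. The class thus includes immunoglobulin genes (0.0134% and 0.0193% of the total), T cell receptor genes and loci typed as processed transcripts, such as Cct6a. Genes on the mitochondrial chromosome held 9.51% and 9.56%, noncoding genes of the nuclear genome 6.62% and 6.40% (15.2% and 15.1% with the mitochondrial ribosomal and transfer RNAs), and pseudogenes 0.163% and 0.155%. These shares depend on the measure, and with values per kilobase mitochondrial genes held 22.3%, all noncoding genes 31.0% and ribosomal protein genes 1.13%. Without mt-Rnr2 the mitochondrial share was 1.78%. Within the nuclear noncoding share, lincRNA genes held 5.15% and 4.98%, of which Gm26917 alone made up 49.4%. Gm26917 was also listed here among loci taken to collect ribosomal RNA reads, and whether its reads came from ribosomal RNA was not tested. The 83 cytosolic ribosomal protein genes held 0.517% and 0.534%. A respiratory chain class of 81 nuclear genes, picked by symbol and including those of ATP synthase, held a similar 0.537% and 0.528%. The ATP synthase gene Atp5b alone made up 20.2% of that class. Histone genes held 0.0141% and 0.0135%. The ranges of the ribosomal protein and respiratory chain shares overlapped, and their order differed between the libraries.

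**Figure D3:**
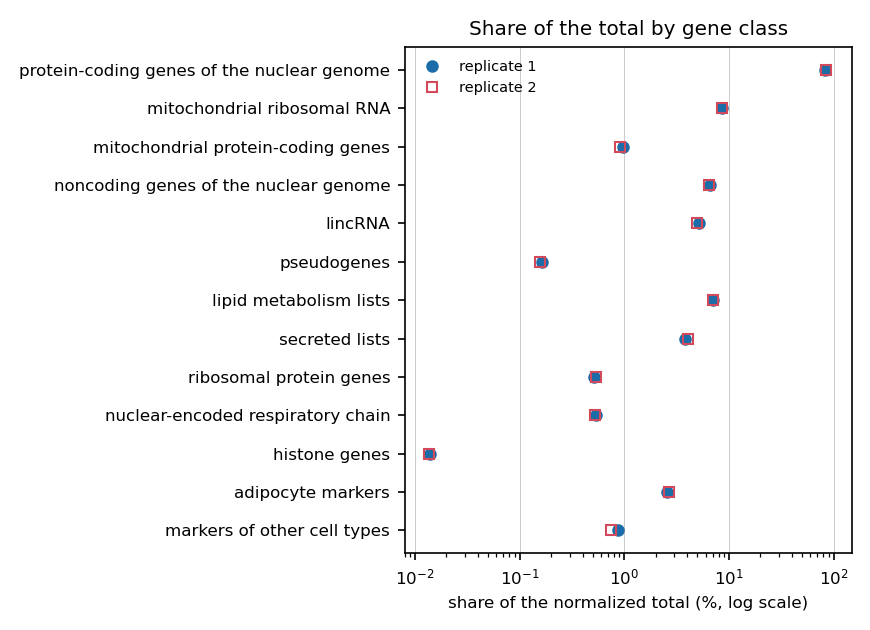
Share of the normalized total (%, horizontal axis, log scale) held by 13 gene classes, with a filled circle for replicate 1 and an open square for replicate 2. The classes overlap in membership, and the points of the 2 libraries nearly coincide except for markers of other cell types (0.868% and 0.747%).

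On the mitochondrial chromosome most counted reads came from the ribosomal RNAs. Both rRNAs held 8.53% and 8.64% of the total, and the 9 protein-coding mitochondrial genes listed held 0.974% and 0.908%. The genes mt-Co2, mt-Atp6, mt-Atp8 and mt-Nd4l are not listed, and reads with several alignments were left out. The split between ribosomal RNAs and messages, and the order of the messages, therefore hold for the counted reads only. The level of mt-Rnr2 was 6.32 and 7.37 times that of mt-Rnr1. Both RNAs are what was left after ribosomal RNA depletion with RiboGone-Mammalian, and whether it removed both alike was not tested. The ratio is therefore not a measure of their ratio in the cell. Among the listed messages, mt-Co1, a core subunit of cytochrome oxidase, was highest with levels of 50145 and 48821, above mt-Cytb (14680 and 13666), mt-Nd5 (13655 and 12786), mt-Nd1 (12751 and 11739) and mt-Nd2 (11072 and 11895). The level of mt-Co1 was 3.93 and 4.16 times that of mt-Nd1. The only message of the other strand, mt-Nd6, had levels of 7630 and 5353, and mt-Nd4 had 3009 and 2536.

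The mitochondrial genes mt-Co3 and mt-Nd3, which encode core subunits of cytochrome oxidase and of complex I, were listed at 0 in both libraries, although mt-Co1 and mt-Nd4, which lie on either side of the pair on the same strand, were expressed. Windows of 75 bases, the read length before trimming, were compared with the transcripts of all other annotated genes, since reads that align to several places had been left out by the authors. Shorter trimmed reads were kept and mismatches were allowed, so exact windows of this length can miss shared alignments. Of the windows of mt-Co3, 99.9% were found letter for letter in Gm28437, a pseudogene at chr1:24613189-24613971, and of the windows of mt-Nd3, 97.8% were found in Gm28438 at chr1:24612775-24613119. For mt-Nd4, the lowest of the listed messages above 0, the share was 61.5%, and for mt-Co1 it was 39.8%. For mt-Nd1, mt-Cytb, mt-Nd6 and both ribosomal RNAs it was 0. A value of 0 or a low level of these messages is therefore not a measure of how much of the RNA was present. The first 60 bases of mt-Co3 and of its nuclear copy are shown, from GRCm38 at chrM:8607-8666 (plus) and chr1:24613912-24613971 (minus), and the pair is identical over 783 bases in all.
mt-Co3: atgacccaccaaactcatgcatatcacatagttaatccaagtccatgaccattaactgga
Gm28437: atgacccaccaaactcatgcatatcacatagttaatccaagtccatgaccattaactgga

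The same check bears on the cytosolic ribosomal proteins, which have many processed pseudogenes. Over the 83 genes the median share of windows also found in another gene was 43.7%, and it passed 50% in 37 of them, whereas among the first 25 genes per kilobase the median was 0 and the highest value was 5.07% (Jun). The ribosomal protein genes of highest level were Rplp1 (6182 and 5786), Rplp2 (2386 and 2834) and Rps15 (2295 and 2630). Among the genes of lowest level, Rpl24 (17 and 25 normalized) had 80.9% of its windows shared and Rpl6l, listed at 0 in both libraries, had 69.4%. Rpl23a (49 and 34 normalized) had 81.7% and Rpl13a (108 and 94 normalized) had 56.3%. Rpl3l (4 and 22 normalized) and Rpl39l (0 and 8 normalized) had none, and the highest gene, Rplp1, had 45.9%. Across the 83 genes the share of windows and the level showed no common order (Spearman's rho = 0.0333, across genes, which are not independent). The genes also differ in expression and in merged exon length, so this order cannot show whether reads of a gene were left out. How many reads of this class, or of the total, were left out was not tested.

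Among noncoding genes outside the mitochondrion, Gm26917, Malat1 and Neat1 were followed by Rpph1, the RNA component of RNase P, with 29680 and 32258 normalized. Rpph1 shares 73.0% of its bases with another gene model on the same strand in GENCODE vM21, and reads over several genes were left out by the authors. The others of the first 10 had far fewer reads. Gm37194 had 6545 and 7641, and the antisense gene Gm17056 had 5602 and 5486. Gm38070, Gm38357, Kcnq1ot1 (an antisense RNA of an imprinted domain) and Gm45223 ran between 2369 and 3076. Outside the first 10, Rmrp, the RNA of RNase MRP, had 1411 and 1084 normalized although 100% of its bases are shared in this way, so the effect of such overlap on either value was not tested. Xist, expressed from the inactive X of females, had 4 and 12, and the Y-linked Ddx3y had 1804 and 1756, the latter being expressed in males. The library protocol was stranded, and whether the counting used strand is not given in the sources used here, so an antisense value may hold reads of its partner.

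All 17 adipocyte markers were detected, and together they held 2.56% and 2.70% of the total. Their median level was 4445, and 17 of 17 lay above 362, the 90th percentile that 10% of detected protein-coding genes pass. The highest were Cfd, Adipoq, Cidec and Fabp4, and the lowest was Slc2a4, the insulin-responsive glucose transporter, with levels of 373 and 424. Their summed share was above that of each list of another cell type in both libraries. The lists were chosen with earlier results of these data known and differ in the kind and number of members. This order therefore does not test the labelled cell type.

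The 6 lipid metabolism lists, 120 genes in all, held 6.97% and 7.0% of the total, and Scd1 alone made up 41.6% of that. The 978 genes of the Gene Ontology term lipid metabolic process held 12.7% and 12.5%. Of the 20 genes of lipid droplets and lipolysis, 17 were detected and 13 were above the 90th percentile. The droplet coat genes Plin1 (33826 and 38431 normalized) and Plin4 (46426 and 67286) were higher in replicate 2. Pnpla2, the triglyceride lipase that starts lipolysis, had 24830 and 17229 and was higher in replicate 1. Lipe, hormone-sensitive lipase, had 11542 and 13399, and Mgll, which splits monoglycerides, had 12016 and 12421. Plin2, the coat protein of many other cells, was lower, with a level of 722 and 858 against 7276 and 8267 for Plin1. Cidea (3 and 12), Cideb (18 and 1) and Fitm1 (8 and 0), which are known from brown fat, liver and muscle, did not reach the detection limit in both libraries.

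Of 20 genes of fatty acid synthesis, 19 were detected and 10 were above the 90th percentile. Beside Scd1, the highest were Fasn, fatty acid synthase, with levels of 3913 and 4071, and Thrsp, a regulator of lipogenesis, with 2426 and 3315. The desaturase Scd2 had levels of 297 and 633, and Scd1 exceeded it 315-fold in replicate 1 and 147-fold in replicate 2. Like 2.58% of genes with a mean of at least 50, Scd2 and Acacb, acetyl-CoA carboxylase 2 (4721 and 1943 normalized), differed by over 2-fold between the libraries in opposite directions. Acaca, the carboxylase of the synthetic pathway, had 7557 and 5870. The elongase Elovl3, known from brown fat, was listed at 0 in both libraries.

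All 19 genes of triglyceride synthesis were detected, and 9 were above the 90th percentile. The highest was Pck1, which supplies glycerol 3-phosphate in fat, with levels of 6111 and 6970. Dgat2, which adds the last acyl chain, had levels of 3662 and 5096, above the 613 and 638 of Dgat1, which catalyses the same step. Gpam, a mitochondrial acyltransferase of the first step, had 6802 and 3594 normalized and was higher in replicate 1. Of the 16 genes of fatty acid uptake and binding, 15 were detected. Fabp4 (55168 and 49480 normalized) exceeded Fabp5 per kilobase 32.5-fold and 29.0-fold, and Lpl was nearly equal between the libraries (91120 and 91503). Gpihbp1, the endothelial anchor of lipoprotein lipase, was detected at 1480 and 1584.

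Genes of mitochondrial fatty acid oxidation held 0.175% and 0.176% of the total, and 11 of 20 lay above the 90th percentile. Acadl was highest, with levels of 1634 and 1799. Cpt1a, which commits fatty acids to oxidation, had levels of 110 and 158, and the muscle form Cpt1b was at 2 and 6 normalized. Cholesterol genes had a median level of 72.4, and 3 of 25 (12%) were above the 90th percentile, a share near the 10% of detected protein-coding genes. Those were the sterol exporter Abca1 (1101 and 1264), Insig1 and Hmgcs1.

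The secreted lists, 55 genes of adipokines and extracellular matrix, held 3.79% and 4.11% of the total. Among the 31 adipokine genes, 30 were detected and 21 were above the 90th percentile. Beside Cfd, Hp, Adipoq and Apoe, Retn, resistin, had levels of 7546 and 7329. Angptl4, an inhibitor of lipoprotein lipase, had 5058 and 4592. Lep, leptin, had 10493 and 19324 normalized, so its value was 1.84 times as high in replicate 2. The inflammatory messages Ccl2 (2694 and 2861), Il6 (1183 and 1053) and Tnf (680 and 688) were detected with little difference between the libraries. Serpina12, vaspin, was at 1 and 0, within what counting error allows for a gene at 0. Sfrp5, a WNT antagonist, had 61 and 212.

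All 24 matrix genes were detected, and 20 were above the 90th percentile. Sparc, which binds collagen, was highest (10887 and 12162). The basement membrane genes Col4a1 (5465 and 6108), Col4a2 (3606 and 4075) and Nid1 (2319 and 2703) stood above the fibrillar collagen gene Col3a1 (2046 and 1625) in both libraries, whereas the basement membrane genes Lamc1 (1306 and 1416), Hspg2 (1071 and 1167), Lama4 (578 and 834) and Lamb1 (503 and 453) stood below it. The adhesion protein gene Thbs1 had levels of 3271 and 4542. The lowest were Lum (231 and 226) and Fbn1 (233 and 209), whose ranges overlapped. By Gene Ontology, the genes of the extracellular space with the highest level after those named were B2m, Actb, Cd36, Lpl, the chemokine gene Cxcl1 (6979 and 7912), Eef1a1, Lgals1, Dbi, Calr, Gpx3 and the complement gene C3 (4327 and 3383). This annotation also holds intracellular proteins such as Actb, and its 980 genes held 9.80% and 10.1% of the total.

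Of 24 adipocyte transcription factor genes, 23 were detected. Cebpa had the highest level (2836 and 3131), followed by Cebpb (1887 and 1519), Klf9 (1225 and 1021) and Pparg, the master regulator of adipocyte differentiation (1001 and 1025). Hoxc8 (levels of 691 and 698) was far above Hoxc9 (27.2 and 27.2) and Hoxc10 (9.43 and 8.91). Tbx15, known from subcutaneous fat, was at 1 and 0. The 12 genes of insulin signalling and glucose uptake were all detected, and Irs2 (levels of 2030 and 1895) stood above Irs1 (234 and 225). Among receptors, Adrb3, the β3-adrenergic receptor, had levels of 1798 and 1296, and the nicotinic acid receptor gene Hcar2 came next with 1311 and 1076.

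Thermogenic genes had a median level of 12.5, and none of the 11 was above the 90th percentile. Of them, 7 were detected, and the list held 0.00471% and 0.00291% of the total. Ucp1, the uncoupling protein of brown fat, had 23 and 18 normalized, a level of 14.1 and 11.0. Cox8b was at 71 and 9, and Prdm16 at 227 and 152.

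YAP and TAZ messages, the targets of the series' knockout, were both present. Wwtr1, which encodes TAZ, had 5594 and 4743 normalized, and Yap1 had 2776 and 2717. Per kilobase Wwtr1 exceeded Yap1 3.90-fold and 3.38-fold. Of the 20 genes of the pathway and its targets, 19 were detected and 3 were above the 90th percentile, Cyr61 (levels of 2642 and 2695), Wwtr1 and Amotl2 (676 and 950). Tead1 had the highest level of the TEAD factors (209 and 196). The target genes Ctgf (101 and 154 normalized) and Ankrd1 (8 and 0) were low. Of the BCL2 family, Mcl1, which protects from apoptosis, was highest (levels of 3672 and 3581) and exceeded Bcl2l1 33.8-fold and 36.4-fold, and Bcl2l11, which encodes BIM, had 1035 and 985 normalized.

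Immediate-early and heat shock genes were among the most abundant messages. The list of 27 genes held 1.89% of the total in replicate 1 and 1.66% in replicate 2, all 27 were detected, and 23 were above the 90th percentile, with 11 among the first 100 genes per kilobase. Fos (34860 and 30383 normalized), Jun (40952 and 36846), Junb (32135 and 30588) and Egr1 (39201 and 29737) were each lower in replicate 2. Atf3 (6664 and 7843) was 1 of 7 members that were higher there. The lowest member, Egr3, had 524 and 293. These genes are known for rapid induction by growth factors and by stress.

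Markers of other cell types made up a smaller part of the total than the adipocyte markers. The 154 genes of 16 lists held 0.868% and 0.747%. Of them 110 were detected, a smaller share than the 13917 of 17815 protein-coding genes of the nuclear genome. For each of these lists, fewer cells of a type and less RNA per cell cannot be told apart. Endothelial markers were the highest, with 0.371% and 0.307% and all 18 members detected. Cldn5, a tight junction gene, had levels of 2464 and 2269, the cadherin gene Cdh5 had 2401 and 1957, and Pecam1 had 1242 and 1008. Adipoq exceeded Pecam1 20.5-fold and 24.0-fold. The lymphatic markers Lyve1 (121 and 90 normalized) and Prox1 (71 and 61) were the lowest in level of the list. The median level of the list was 350, and that of the adipocyte markers was 12.7 times as high.

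Pericyte and smooth muscle markers held 0.121% and 0.126%, with all 11 detected. Rgs5, a pericyte marker, accounted for 43.0% of that and had 6953 and 9704 normalized, whereas Acta2, smooth muscle actin, had 1272 and 554. Fibroblast and progenitor markers held 0.282% and 0.227%, with 16 of 16 detected. Col3a1 made up 45.2% of it, and 4 of the 16 genes are also in the matrix list. Pdgfra, the receptor that marks progenitors, had 1310 and 993, and Dpp4 had 25 and 8. Adipoq exceeded Pdgfra 195-fold and 244-fold per kilobase.

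Macrophage markers were all detected, 23 of 23, but held 0.0544% and 0.0496%. Lyz2 had levels of 1104 and 1228, and the common leukocyte marker Ptprc had 25.8 and 24.2, so that Adipoq exceeded it 985-fold and 997-fold. Mrc1 (1186 and 1298 normalized) and Csf1r (655 and 583) were within a small range between the libraries. Of the 6 lipid-associated macrophage markers 5 were detected, and Trem2 had 29 and 35. Lymphocyte markers held 0.0125% and 0.0153%, of which Ighm, the IgM heavy chain, made up 89.3%. Cd3d was listed at 0 in both libraries, and 7 of the 14 genes were detected.

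Markers of red blood cells and of other tissues and cells had few reads, and the source of these reads was not tested. The haemoglobin gene Hbb-bs had 819 and 558 normalized, and the red blood cell list held 0.0108% and 0.00738%. Mesothelial markers held 0.00175% and 0.00152%, led by Wt1 (142 and 151), with Msln at 2 and 9. Of the 6 epididymis markers analysed, 4 were listed at 0 in both libraries and Rnase9 and Rnase10 had 2 and 7 each. A further 6 epididymis markers had no value in the deposited data. Of 7 germ cell markers 4 were at 0 in both, and Prm2 had 2 and 9. Acta1, skeletal muscle actin, had 97 and 101. The liver marker Alb had 30 and 40, the Schwann cell gene Mbp 239 and 284, the pancreatic Ctrb1 21 and 6, the mast cell gene Kit 331 and 369, and the neutrophil gene S100a8 7 and 5. Of 12 cell cycle genes 10 were detected, with a median level of 9.14, led by Pcna (769 and 915 normalized) and Mki67 (617 and 758), with Cdk1 at 24 and 19.

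**Figure D4:**
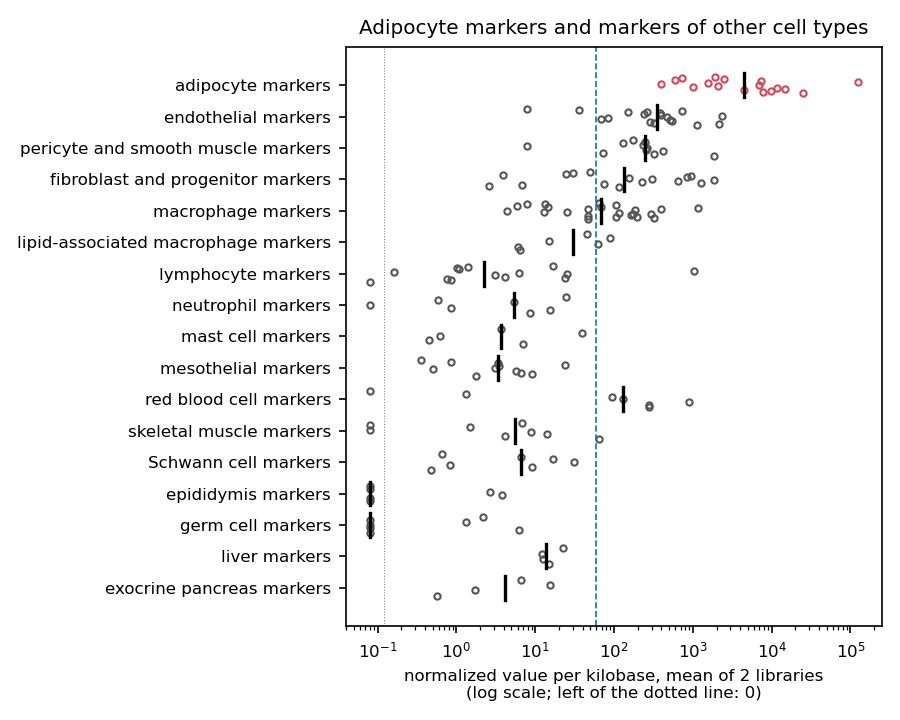
Level per kilobase (mean of the 2 libraries, horizontal axis, log scale) of each marker gene, with 1 row of open circles per list, a black bar at the list's median and points left of the dotted line at 0. Adipocyte markers (top, red) have a median of 4445, endothelial markers 350 and macrophage markers 68.2, and the dashed blue line marks the median of detected protein-coding genes, 59.8.

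The libraries were close to each other for abundant genes and further apart for rare ones. Over 12036 genes with a mean of at least 50, the median difference was 1.15-fold, and 311 (2.58%) differed by over 2-fold, 155 higher in replicate 2 and 156 in replicate 1. Of these genes, 47.5% were higher in replicate 1 and 51.8% in replicate 2. Between 5 and 50 normalized the median difference was 1.71-fold, and above 50000 it was 1.04-fold. Only 4 of the first 1000 genes by reads differed by over 2-fold.

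Lists of vascular, stromal and red blood cells leaned to replicate 1. Of the endothelial markers with a mean of at least 50, 16 of 18 were higher in replicate 1 (88.9%, against 47.5% of all genes), with a median log2 difference of -0.23. Of the fibroblast and progenitor markers 12 of 13 were higher there, with a median of -0.33, and of the pericyte and smooth muscle markers 8 of 10. The summed share of the last list was nonetheless slightly higher in replicate 2 (0.121% and 0.126%), because Rgs5, with 43.0% of it, was higher there. Macrophage markers had 11 of 17 higher in replicate 1, with a median of -0.09, whereas both lymphocyte genes of that abundance were higher in replicate 2. Of the red blood cell markers 4 of 5 were higher in replicate 1, with a median of -0.55. Of the immediate-early and heat shock genes 20 of 27 were higher in replicate 1 as well. The adipocyte markers had 7 of 17 higher in replicate 1 and a median of 0.04, and ribosomal protein genes had 51 of 78 higher in replicate 2. Members of a list are not independent of each other, and with 1 library each the mouse and its preparation cannot be told apart.

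**Figure D5:**
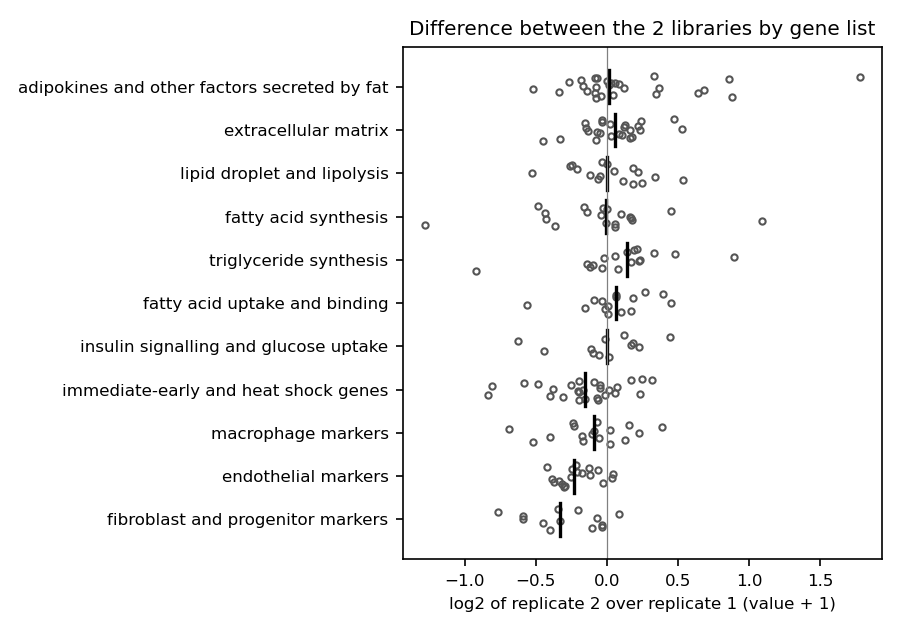
Difference between the libraries as log2 of replicate 2 over replicate 1 (value plus 1, horizontal axis) for members with a mean of at least 50 of 11 lists, with an open circle per gene and a black bar at the list's median. The bars of endothelial (-0.23) and of fibroblast and progenitor markers (-0.33) lie left of 0, and those of the lipid and adipokine lists lie near 0 or right of it.

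The genes that differed most were mostly of low value. Higher in replicate 2 were Igha, the IgA heavy chain (29 and 158 normalized), Gm10516 (18 and 96), Sez6l (19 and 89), Gm29183 (18 and 84) and the calcium channel gene Cacna1e (50 and 221). Higher in replicate 1 were Hey2, a NOTCH target of arterial endothelium (99 and 7), Gm15564 (806 and 125), the guanylate-binding protein gene Gbp11 (752 and 117), the mitochondrial Chchd10 (281 and 52) and the BMP antagonist gene Nog (88 and 19). With 1 value per mouse, a difference of this size cannot be set against the spread between mice.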

How the data were processed

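The study isolated total RNA from epididymal white adipocytes, depleted ribosomal RNA, made stranded total RNA libraries and sequenced single-end reads of 75 bases. Per the submitters' processing notes and the methods, reads were aligned to GRCm38 (mm10) with STAR 2.5.2b and counted per gene over exons with featureCounts 1.5.1. Reads that overlapped more than 1 gene or had several alignments were excluded. DESeq2 1.14.1 was named for the authors' tests. The values the authors deposited are treated as a score, because they are read counts scaled by a library-specific factor and then rounded. How that factor was set is not given in the sources used here. The 6 columns of other samples were not used.

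The value of 1 read (1.01 and 1.13) was taken from the spacing of the whole numbers present among low values, and the procedure was tested on 5 simulated libraries of 30387 genes, where the largest error was 1.6e-05. The total divided by it gave the depth. Molecular identifiers were not used on the amplified reads, so floors cover counting error only. Lengths, classes and overlaps came from GENCODE vM21 on GRCm38, and promoters from RefSeq on GRCm38.p6. Genes named are the 25 protein-coding nuclear genes highest per kilobase, the 10 with the most reads, mitochondrial genes, the 10 noncoding genes with the most reads, secreted genes highest per kilobase, the 5 most different between libraries each way, and list members. Mitochondrial copies, ribosomal protein genes by shared windows and promoters were added after values were seen. Lists and comparisons were chosen with earlier results of these data known. List members missing from the table (16) are not analysed here. Differences between libraries used log2 with a pseudocount of 1. Python 3.11.15, numpy 2.4.6, pandas 2.3.3 and matplotlib 3.10.9 were used. Alternatives changed the total, the length, the detection limit, the pseudocount, the minimum mean and the libraries. Some list members are not reported here.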

Additional observations from a re-analysis of the deposited data

How the results depend on the processing

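Every value rests on 2 libraries of 15355373 and 13989593 reads, so genes of a few reads are poorly measured, and shares depend on what the total holds. Of 92 recomputed values, 53 moved, shares by more than 1 SD between the libraries and counts by over 1.5 times, and 39 moved less. The latter include the shares from either library alone, which with 2 libraries cannot differ from their mean by 1 SD and so say nothing of stability. Counts that moved by up to 1.5 times could still lie outside the single-library values, as did 589 and 562 genes for 50% of the total without the mitochondrial chromosome or mt-Rnr2. No paired analysis was possible because the result comes from no test. Shares are percentages of the total, in the order protein-coding, mitochondrial, noncoding (15.1 as reported, mitochondrial RNAs included), lipid lists, secreted lists, ribosomal proteins, adipocyte markers and first 10 genes where present. With values per kilobase they were 68.3, 22.3, 31.0, 5.09, 5.996, 1.13, 4.88 and 33.4, markers of other cell types held 0.608 and 114 genes held 50%. With the mitochondrial chromosome left out, they were 92.6 for protein-coding, 7.20 for noncoding, 7.72 for lipid, 4.36 for secreted, 0.581 for ribosomal protein, 2.91 for adipocyte marker genes and 13.5 for the first 10. With mt-Rnr2 left out they were 92.0, 1.78, 7.83, 7.58, 4.29, 0.571, 2.86 and 13.6. With only genes of a mean of 50 or more, protein-coding genes held 85.0, mitochondrial 9.62, noncoding 14.9, lipid 7.05 and the first 10 genes 20.04. Without genes that share exon bases with another gene they were 82.3, 12.6, 17.5, 8.70, 4.33, 0.415, 3.01 and 26.8, and 195 genes held 50%. At a detection limit of 50 in both libraries 11518 genes were detected, 17 genes with a mean of 500 or more differed by over 2-fold, and without the length correction 16 of the first 25 genes stayed. The alternatives that follow were chosen after seeing the data. Without the mitochondrial chromosome and Gm26917, protein-coding genes held 95.3, noncoding 4.56, lipid 7.94, secreted 4.49, ribosomal protein 0.598, adipocyte marker 2.99 and other cell type marker genes 0.918, the first 10 genes 11.4, and 643 genes held 50%. By Gene Ontology term, lipid genes held 12.6 and secreted genes 9.97.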
